A study of Mus musculus with 9 samples.

Results

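The Krüppel-like factor genes described here are Klf2, Klf3, Klf4, Klf5, Klf6, Klf7, Klf9, Klf10, Klf13 and Klf16, 10 genes in all. Their members on the array are all probe sets that the platform annotation assigns to 1 of these symbols and to no other gene, which gave 34 of the 45101 probe sets. Of these 34, 32 passed the filter on low values, 1 probe set each of Klf9 and Klf13 being left out, and every gene kept at least 1. The probe sets of a gene are not independent: all 4 of Klf7 and both of Klf4 were designed from a single sequence record, and the 5 of Klf6 from 4 records.

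RNA came from mouse NIH 3T3 fibroblasts, an established line, which had been serum-starved and was hybridised to 9 Affymetrix expression arrays, 3 per group. All cells, the controls included, received cycloheximide, which blocks translation, at 3 µg/ml for 2 h. The control group received no actin drug, the cytochalasin D group 2 µM cytochalasin D for 90 min, and the double-drug group 5 µM latrunculin B together with 2 µM cytochalasin D for 90 min. The double-drug samples are titled for latrunculin B only, but their agent label lists both compounds, as the series design does, and the grouping follows that label. The labels call F-actin normal in controls and depolymerized in both drug groups, and replicates, which the series design calls independent, are numbered 1, 3 and 7.

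Krüppel-like factors (KLFs) are transcription factors with zinc fingers of the C2H2 type at the C terminus, which bind GC-rich and CACCC-type sequences. KLF2, KLF4, KLF5, KLF6 and KLF7 form a branch best known for activation, KLF3 recruits the corepressor CtBP, and KLF9, KLF10, KLF13 and KLF16 carry a domain that binds the corepressor SIN3A. In fibroblasts several KLF genes behave as immediate-early genes, whose transcripts respond to serum or growth factors without new protein. Cytochalasin D caps actin filaments and releases MRTF, a coactivator of serum response factor (SRF), from monomeric actin, whereas latrunculin B binds monomeric actin and leaves MRTF bound to it. Because translation was blocked in every group, the comparisons ask which KLF transcripts differ between states of actin without new protein.

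Promoters of the KLF genes are rich in the same letters that KLF and Sp proteins bind, and those of the 2 genes that rose, Klf6 and Klf7, are shown with that of Klf3, of whose 7 probe sets 6 had lower means with cytochalasin D, without passing the test. Each stretch holds the 250 bases before the RefSeq transcription start in assembly GRCm38.p6, read 5′ to 3′ on the gene's strand, from chr13:5861239-5861488 on the plus strand for Klf6, chr1:64121390-64121639 on the minus strand for Klf7 and chr5:64803271-64803520 on the plus strand for Klf3. Capitals mark GC boxes (GGGCGG) and CACCC boxes (CACCC) on either strand; where both touch, they share letters.
Klf6: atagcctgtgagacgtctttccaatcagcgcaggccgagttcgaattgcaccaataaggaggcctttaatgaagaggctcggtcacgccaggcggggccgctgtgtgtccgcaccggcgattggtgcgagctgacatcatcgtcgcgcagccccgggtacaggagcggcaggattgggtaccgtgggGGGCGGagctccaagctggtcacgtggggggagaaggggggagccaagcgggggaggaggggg
Klf7: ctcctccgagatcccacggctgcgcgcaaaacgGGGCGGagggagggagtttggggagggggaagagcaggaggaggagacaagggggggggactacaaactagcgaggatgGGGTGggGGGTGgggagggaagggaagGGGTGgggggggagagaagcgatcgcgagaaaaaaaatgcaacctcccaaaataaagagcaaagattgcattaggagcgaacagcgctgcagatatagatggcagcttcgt
Klf3: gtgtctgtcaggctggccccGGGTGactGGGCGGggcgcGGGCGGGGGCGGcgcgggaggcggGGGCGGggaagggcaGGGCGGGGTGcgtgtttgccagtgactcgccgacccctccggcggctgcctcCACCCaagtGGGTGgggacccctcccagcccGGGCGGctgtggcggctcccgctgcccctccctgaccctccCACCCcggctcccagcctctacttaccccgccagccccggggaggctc

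Promoter entries matched 7 of the 10 genes; Klf5, Klf10 and Klf16 had none. A GC box was found in 6 of the 7, all but Klf9, against 32.7% of the 32851 promoters of the same length in the table, and a CACCC box in 5 of 7 (not Klf4 or Klf6) against 52% of all. Klf6 held 1 GC box, Klf7 held 1 GC box and 3 CACCC boxes, and Klf3 held 6 GC boxes and 5 CACCC boxes. The CArG box, the element that SRF binds, was in 0 of the 7 and in 1.47% of all promoters, and the core of the cAMP response element (TGACG) was in 4 of 7 (Klf2, Klf4, Klf9 and Klf13) against 17.8%. These matches describe the letters of this window only.

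Across the arrays the median intensity lay between 7.57 and 7.84 and the 75th percentile between 152 and 162. The MRTF-SRF targets Acta2, Srf, Vcl, Tagln, Myl9 and Cnn1 all rose with cytochalasin D (6 of 6 in limma, median log2 change 2.47). Vcl kept its call in 4 of 9 fits with 1 array left out, the others in all 9. With both drugs the median log2 difference of these 6 genes from control was 1.31. In limma 5 of the 6 had an unadjusted p under 0.05 there. Only Srf was called, and that call was lost in all 9 fits with 1 array left out. Fibroblast markers were bright (9 of 10 listed had a probe set and all 9 were tested, summed intensity 111269 to 122498 per array, with overlapping ranges in the 3 groups), and 0 of 7 endothelial markers passed the filter, their summed intensity lying between 32.7 and 33.7 on every array. Macrophage markers (4 of 7 tested) summed to 368 to 440 in controls, 279 to 381 with cytochalasin D and 330 to 386 with both drugs on the arrays, and their part in the KLF values was not tested. Epithelial, adipocyte and skeletal muscle markers summed to at most 44.6, 20.4 and 40.1. These arrays measure RNA, so a change in RNA per cell cannot be told from a change in the cells.

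Cytochalasin D alone was compared with control first. Klf7 and Klf6 transcripts rose, by 2.94-fold and 1.79-fold at the probe set of each with the smallest adjusted p, Klf10 had the largest lower value of the family at 0.36 of control without passing the test, and Klf2 and Klf4 had values that overlapped between the groups. Of the 32 KLF probe sets tested, 3 rose, 0 fell and 29 were not called in limma at an adjusted p under 0.05, which is 9.38% where 1.57% of all 27010 probe sets tested were called (1.14% higher, 0.422% lower). The 3 belong to 2 of the 10 genes. An unadjusted p under 0.05 was reached by 19 of the 32, against 10.2% of all. The 3 cytochalasin D values lay wholly on 1 side of the 3 control values for 18 of the 32 (11 higher, 7 lower), or 56.2%, against 11.5% of all probe sets tested. The KLF probe sets were mostly bright: 23 of the 32 were above the 75th percentile on all 9 arrays. To be tested, a probe set had only to pass the 40th percentile on 3 arrays. Percentages of all probe sets, here and in the later comparisons, were not matched for brightness. The part of brightness in these contrasts was not tested.

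KLF7, an activator known for its part in neuronal development, gave the largest rise. Probe set 1419354_at had intensities of 444, 403 and 400 in controls (replicates 1, 3 and 7), 1263, 1175 and 1320 with cytochalasin D, and 700, 616 and 898 with both drugs. No group overlapped another here, and the double-drug arrays lay between the others. Means ± SD of the 3 arrays were 416 ± 24.3 in controls and 1253 ± 72.7 under cytochalasin D, which is a rise of 1.56 on the log2 scale (SE 0.13, adjusted p = 0.00292 in limma).

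A further Klf7 probe set, 1419356_at, had 433, 315 and 344 in controls, 1077, 873 and 1236 with cytochalasin D, and 501, 580 and 614 with both drugs, again with no overlap. Its log2 change was 1.50 (SE 0.16, adjusted p = 0.00759 in limma), and its call was lost in a fit on the 6 arrays compared (adjusted p = 0.0662). The other two probe sets of Klf7 had changes of the same size but more spread between replicates. For 1419355_at the change was 1.52 (SE 0.27, adjusted p = 0.0521). The brightest, 1449439_at, had 666, 1135 and 1280 in controls against 2136, 2345 and 3756 with cytochalasin D, a change of 1.41 (SE 0.40, adjusted p = 0.232). Thus all 4 Klf7 probe sets had changes between 1.41 and 1.56 with groups that did not overlap, and 2 of the 4 passed the test.

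KLF6, an activator also studied as a tumour suppressor candidate, rose at 1 of its 5 probe sets. Probe set 1427742_a_at had 4806, 3880 and 4188 in controls, 7479, 7979 and 7503 with cytochalasin D, and 4884, 5504 and 5190 with both drugs. The cytochalasin D arrays stood clearly above all others, and the lowest double-drug array was just above the highest control. Controls averaged 4291 ± 471 and cytochalasin D arrays 7654 ± 282 (SD, n = 3), which is a rise of 0.84 on the log2 scale (SE 0.08, adjusted p = 0.00527 in limma).

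The remaining Klf6 probe sets all had positive changes and were not called. They were 0.79 for 1447448_s_at (adjusted p = 0.0803), 0.51 for 1433508_at (adjusted p = 0.194), 1.17 for 1418280_at (adjusted p = 0.311) and 0.34 for 1459718_x_at (adjusted p = 0.629). The first and last of these come from the same sequence record, and their suffixes mark probes that can bind related transcripts. At 1418280_at replicate 1 was the highest array of each group, with 1356 in controls where replicates 3 and 7 had 729 and 585, so its groups were wide. The 3 cytochalasin D values of 2350, 1996 and 1453 still lay above the controls, but the double-drug array of replicate 1, at 1816, lay above the lowest of them. Only 1459718_x_at had cytochalasin D and control values that overlapped.

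**Figure D1:**
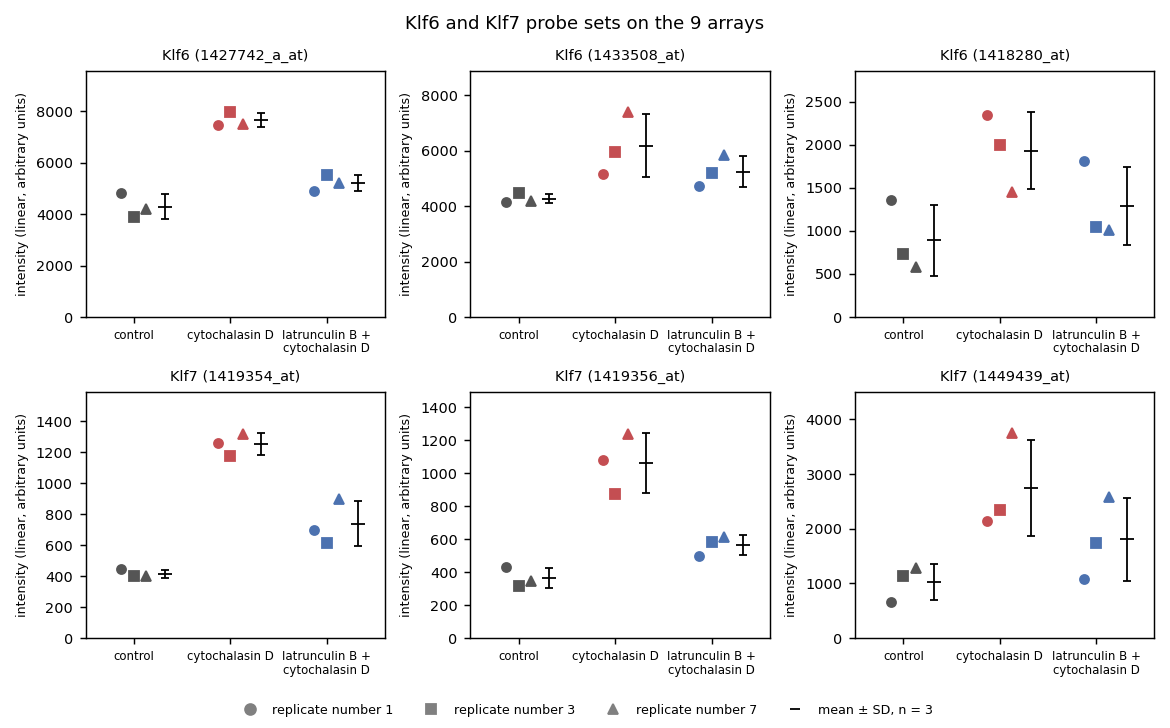
Intensity on a linear scale of 3 Klf6 probe sets (top) and 3 Klf7 probe sets (bottom) on the 9 arrays, with 1 symbol per array, its shape giving the replicate number, and the mean ± SD of each group (n = 3) as a black bar. At 1427742_a_at and 1419354_at the cytochalasin D arrays (from 7479 and from 1175) lie above every control and double-drug array, whereas at 1418280_at and 1449439_at the replicates of a group are spread widely.

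Klf2, Klf4 and Klf5, the other members of the activator branch, were not called. KLF2 and KLF4 are regulators of endothelial and epithelial cells, and KLF4 is one of the factors used to reprogram fibroblasts. Klf2 (1448890_at) had 1770, 2115 and 2657 in controls and 1695, 2051 and 2745 with cytochalasin D, a log2 change of -0.02 with a 95% interval of -0.66 to 0.62. The replicates of each group thus spread far more than the groups differed. Within replicate numbers 1, 3 and 7 the cytochalasin D array of Klf2 stood at 0.958, 0.969 and 1.03 of the control. Klf4 (1417394_at) had 5378, 6160 and 7639 in controls and 4296, 4247 and 7052 with cytochalasin D, a change of -0.32 (95% interval -0.95 to 0.30, adjusted p = 0.849), and its second probe set, 1417395_at, one of -0.20 (adjusted p = 0.925). Although the Klf4 groups overlapped, the cytochalasin D array was below the control of its own number each time. It stood at 0.799, 0.689 and 0.923 of that control at 1417394_at, and at 0.784, 0.903 and 0.935 at 1417395_at. Klf5, a growth-associated factor, was dim: its lead probe set 1451021_a_at had 141, 78.6 and 78.9 in controls and 68.1, 51.4 and 65.4 with cytochalasin D, a change of -0.54 (adjusted p = 0.429). These groups did not overlap, but the control of replicate 1 stood well above the others, and without it the change was -0.29. The remaining Klf5 probe sets stayed between 7.16 and 8.91 on all arrays, near the array median.

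KLF10, also called TIEG1, is an early response gene of TGF-beta in many cells. Its only probe set, 1416029_at, had 2871, 2835 and 4298 in controls, 1098, 883 and 1633 with cytochalasin D, and 1928, 1735 and 2474 with both drugs. The groups did not overlap, the cytochalasin D arrays being lowest and the double-drug arrays between, and replicate 7 was the highest of each group. Controls averaged 3335 ± 834 and cytochalasin D arrays 1204 ± 386 (SD, n = 3), which is a log2 difference of -1.48 (SE 0.27, 95% interval -2.12 to -0.83). This was the 7th lowest change of the 27010 probe sets tested, and its adjusted p of 0.0606 in limma missed the threshold. Within replicate numbers 1, 3 and 7 the cytochalasin D array stood at 0.382, 0.311 and 0.38 of the control.

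KLF3, a repressor that works through CtBP, had 7 probe sets, 4 of them above the 75th percentile on all 9 arrays. Its lead probe set 1454666_at had 4281, 4291 and 4690 in controls, 2665, 2774 and 3783 with cytochalasin D, and 3547, 3789 and 4128 with both drugs. Controls lay above both drug groups, which overlapped each other, and the log2 change with cytochalasin D was -0.54 (SE 0.14, adjusted p = 0.165). At 1429360_at the arrays had 2039, 1721 and 1940 in controls and 1266, 1190 and 1455 with cytochalasin D, a change of -0.54 (SE 0.10, adjusted p = 0.0595). The other bright probe sets had changes of -0.36 (1421604_a_at) and -0.26 (1431630_a_at), and in all 4 the control and cytochalasin D values did not overlap. The dim probe sets, at most 16.6 on any array, had changes of -0.25 (1441200_at, adjusted p = 0.0648, no overlap), -0.14 (1442920_at, adjusted p = 0.461) and 0.04 (1458487_at, adjusted p = 0.71). None of the 7 passed the test. Without cytochalasin D replicate 7 the count of KLF probe sets called went from 3 to 6, where 1.3% of all were called. The added ones, all lower, were Klf10 (adjusted p = 0.0411), 1454666_at (adjusted p = 0.0183) and 1429360_at (adjusted p = 0.0491) in limma.

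**Figure D2:**
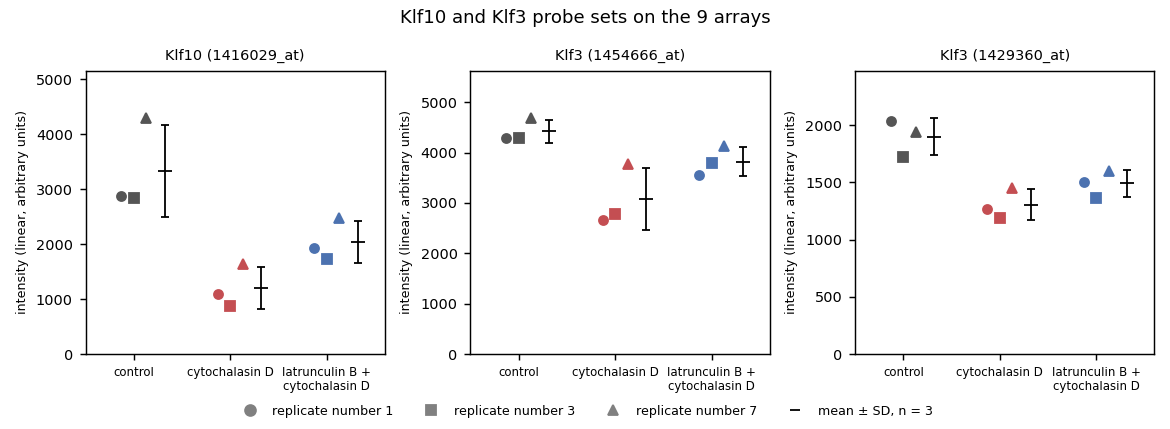
Intensity on a linear scale of the Klf10 probe set and of 2 Klf3 probe sets on the 9 arrays, with the replicate number as the symbol's shape and the mean ± SD of each group (n = 3) in black. Every cytochalasin D array lies below every control array in all 3 panels, and the cytochalasin D array of replicate 7 (1633, 3783 and 1455) is the highest of its group.

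Of the genes whose proteins bind SIN3A, Klf9, Klf13 and Klf16 had small changes with cytochalasin D. Klf9, a glucocorticoid-induced gene, had 5122, 6988 and 8354 in controls and 6369, 6267 and 8606 with cytochalasin D at its lead probe set 1456341_a_at, a log2 change of 0.07 (95% interval -0.46 to 0.60). Its probe sets differed among themselves. At 1436952_at, which is dim, the values were 46.7, 49.9 and 50.6 in controls and 66.4, 70.9 and 63.1 with cytochalasin D, a change of 0.35 (SE 0.07, adjusted p = 0.0819), and 1436763_a_at had one of 0.37 (adjusted p = 0.487). The 2 had groups that did not overlap, unlike the 4 brighter ones, whose remaining changes were 0.05 (1428289_at), 0.09 (1428288_at) and -0.08 (1422264_s_at). Klf13 (1432543_a_at) had 293, 342 and 340 in controls and 386, 398 and 506 with cytochalasin D, a change of 0.38 (adjusted p = 0.399). These values did not overlap, but those of its other tested probe set, 1436316_at, did: 155, 160 and 172 in controls against 155, 178 and 191, a change of 0.09. Klf16 (1416350_at) had 69.9, 86.0 and 83.9 against 77.5, 86.4 and 110, which overlap, a change of 0.15 (adjusted p = 0.842).

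**Figure D3:**
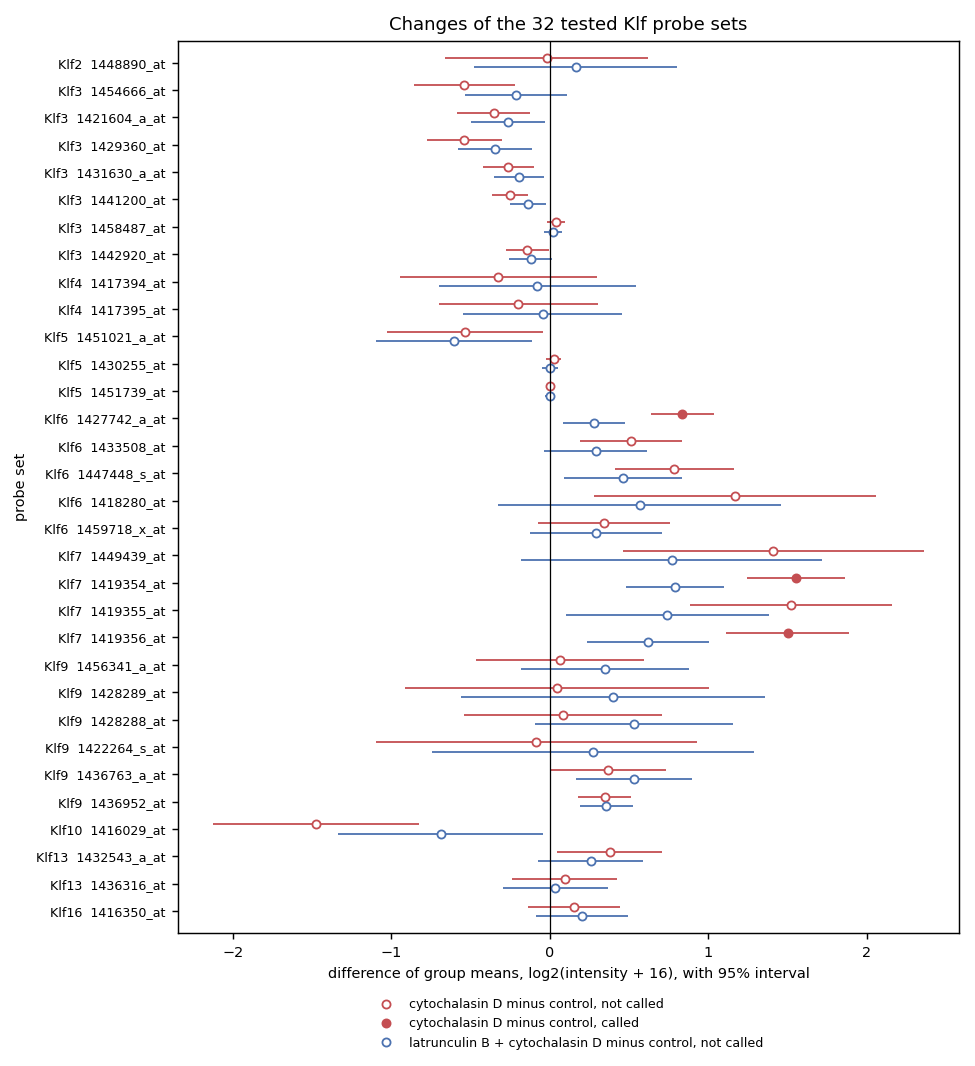
Differences of group means on the log2(intensity + 16) scale for the 32 tested KLF probe sets, with 95% intervals from limma that are not adjusted for the number of probe sets, for cytochalasin D minus control (red) and the double-drug group minus control (blue). Filled points passed the adjusted p of 0.05: 1 of Klf6 and 2 of Klf7, all in red; Klf10 has the lowest point at -1.48.

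The second comparison asked what differed from control when latrunculin B was given together with cytochalasin D. No KLF transcript passed the test: 0 of 32 probe sets were called in limma, where 0.111% of all probe sets were, and 13 of the 32 had an unadjusted p under 0.05 (5.28% of all). Group values did not overlap for 18 of the 32 (11 higher, 7 lower), against 8.08% of all. At 1419354_at Klf7 averaged 738 ± 145 (SD, n = 3), with a log2 difference from control of 0.79 (95% interval 0.48 to 1.10, adjusted p = 0.14). The 4 Klf7 probe sets had differences from 0.62 to 0.79, and at 3 of them the double-drug and control arrays did not overlap. Klf6 at 1427742_a_at had a mean of 5193 ± 310 (SD, n = 3), a difference of 0.28 (95% interval 0.08 to 0.47, adjusted p = 0.60).

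Klf10 had a mean of 2046 ± 383 in the double-drug group (SD, n = 3), a log2 difference from control of -0.69 (95% interval -1.34 to -0.04, adjusted p = 0.892). With the replicate block in limma, adjusted p was 0.0645 for Klf10, 0.092 for Klf7 at 1419354_at and 0.396 for Klf6 at 1427742_a_at. The Klf3 lead probe set had a log2 difference from control of -0.21 (adjusted p = 0.9998) and 1429360_at one of -0.35 (adjusted p = 0.556). Klf5 at 1451021_a_at had 61.2, 60.6 and 52.0, a difference of -0.60 (adjusted p = 0.758), or -0.36 without control replicate 1. Klf2, Klf9 and Klf16 had their highest mean with both drugs. For Klf9 at 1456341_a_at the arrays had 7769, 7643 and 10393, a difference of 0.35 (95% interval -0.18 to 0.88) that overlapped control. At its dim probe set 1436952_at the 3 double-drug arrays, with a highest value of 75.5, all lay above the controls, a difference of 0.36 (adjusted p = 0.215).

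By the agent label, cytochalasin D with and without latrunculin B differ only in the second drug, and their direct comparison tests whether it changed the KLF transcripts. Again 0 of 32 probe sets were called in limma, where 0.259% of all were, and 7 had an unadjusted p under 0.05 (4.22% of all). Group values did not overlap for 6 of the 32, or 18.8%, against 6.26% of all. These were 1427742_a_at of Klf6, 3 of the 4 probe sets of Klf7, the dim 1441200_at of Klf3, and Klf10. Klf6 at 1427742_a_at was higher with cytochalasin D alone by 0.56 on the log2 scale (SE 0.08, 95% interval 0.36 to 0.76, adjusted p = 0.0894), and passed the test without control replicate 1 (0.56, adjusted p = 0.0363), which is not among the arrays compared and enters only the estimate of spread. Klf7 at 1419354_at differed by 0.77 (SE 0.13, 95% interval 0.46 to 1.08, adjusted p = 0.142) and Klf10 by -0.79 (SE 0.27, adjusted p = 0.921). With the replicate block in limma, adjusted p at these probe sets was 0.142 for Klf6, 0.107 for Klf7 and 0.0538 for Klf10. The first and second comparisons share their control arrays, so the changes of Klf7 (1.56 and 0.79), Klf6 (0.84 and 0.28) and Klf10 (-1.48 and -0.69) stand side by side without a test between them other than this direct one.

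At both Klf4 probe sets, the Klf2 probe set and the 4 brightest of Klf9, the replicate number took a larger share of the variation than the drug group. The same held for Klf16 (53.3% by number, 30.9% by drug group), 1436316_at of Klf13 (68.5% and 6.53%) and the dim 1451739_at of Klf5 (20.5% and 6.97%). Klf2 lay between 1695 and 1830 on the 3 arrays of number 1, between 2051 and 2357 on those of number 3, and between 2657 and 3239 on those of number 7, whichever drug was given. Of the total sum of squares of its log2 values over the 9 arrays, 90.8% fell to the replicate number and 7.43% to the drug group, where the medians over all tested probe sets were 41.4% and 20.2%. For Klf4 the number took 73.9% and 79.6% at its 2 probe sets, and for Klf9 between 52.6% and 77.8% at the 4 brightest, where the drug group took 9.97% to 41.1%. The 2 dimmer Klf9 probe sets had the reverse, with 83.5% by drug group and 1.80% by number at 1436952_at and 64.8% and 23.3% at 1436763_a_at. Within each of the 3 numbers the double-drug array was above the control for Klf2, at 1.03, 1.11 and 1.22 times it, and for Klf9 at 1456341_a_at, at 1.52, 1.09 and 1.24 times. The arrays of number 7 lay above all 6 others at 6 of the 32 KLF probe sets, against 3.05% of all probe sets tested.

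The 3 called probe sets, which were selected by the group test, had high shares by drug group. It took 95.5% and the number 2.09% at 1419354_at of Klf7, 92.7% and 2.38% at 1419356_at, and 94.1% and 0.162% at 1427742_a_at of Klf6. The uncalled probe sets of these genes were more mixed: the number took 31.9% at 1449439_at of Klf7, and 37.0% at 1418280_at and 41.6% at 1459718_x_at of Klf6, the last above its 39.3% by drug group. Klf10 had 81.1% and 17.7%, and the 4 bright Klf3 probe sets had 67.6% to 81.9% by drug group. What the replicate numbers stand for is not given in the labels, and their part in these values was not tested further.

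**Figure D4:**
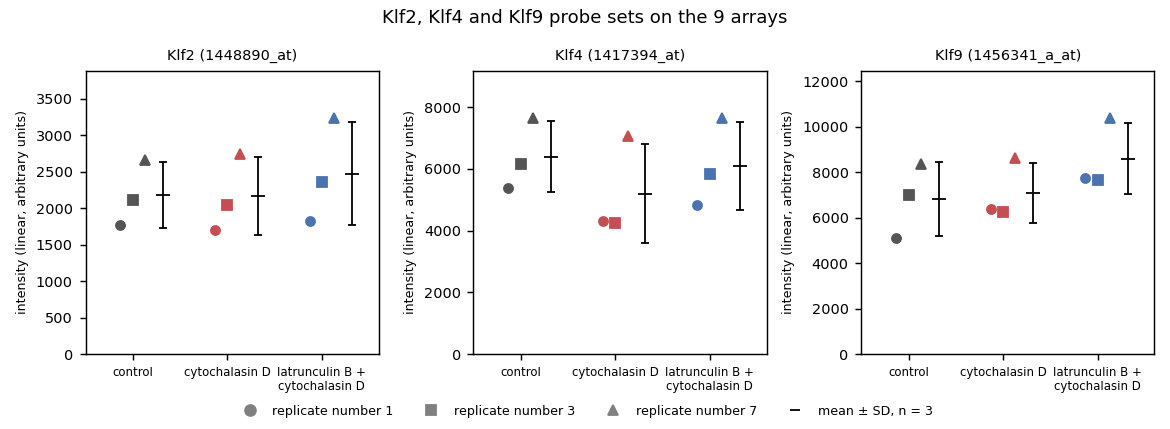
Intensity on a linear scale of the lead probe sets of Klf2, Klf4 and Klf9 on the 9 arrays, with the replicate number as the symbol's shape and the mean ± SD of each group (n = 3) in black. The number 7 array is the highest in each group, as for Klf2 with 2657, 2745 and 3239, and the 3 groups overlap.

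**Figure D5:**
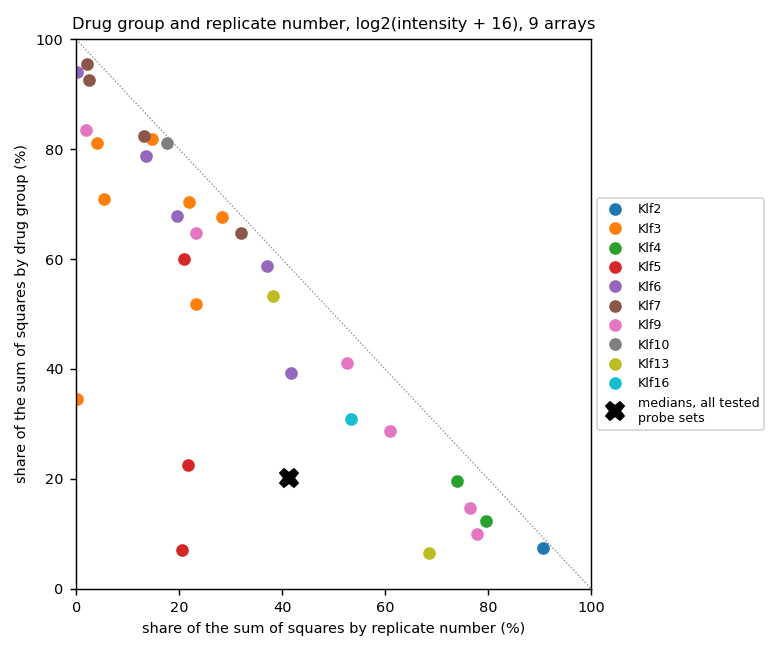
Share of the sum of squares of log2(intensity + 16) over the 9 arrays that falls to the replicate number (horizontal axis, percent) and to the drug group (vertical axis, percent) for each of the 32 tested KLF probe sets, with the medians over all tested probe sets as a cross at 41.4% and 20.2%. Klf6, Klf7, Klf10 and Klf3 probe sets lie mostly at the upper left, and Klf2, Klf4 and most Klf9 probe sets at the lower right.

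Other genes of the family and of its pathway were counted on the brightest tested probe set of each gene, where 1.93% of 12651 genes were called with cytochalasin D, 0.142% with both drugs and 0.332% between the drug groups. Of the other KLF and Sp genes, 8 of 16 were tested and 0 were called in any comparison in limma (also 0 at an unadjusted p under 0.05). Their median log2 change with cytochalasin D was 0.0012, beside -0.00098 over all probe sets. Among them Klf12, Klf14, Sp4, Sp6 and Sp7 were dim, at most 21.7 on any array, and the log2(intensity + 16) scale makes such changes smaller. In controls Klf11 averaged 45.6 and Sp3 369. Sp1, a widely expressed activator, averaged 2348 ± 98.1 in controls and 2187 ± 420 under cytochalasin D (SD over 3 arrays). Of 12 cofactors of KLF proteins, among them the corepressor genes Ctbp1, Ctbp2, Sin3a and Sin3b, 12 were tested and 0 called in limma in any comparison (also 0 at an unadjusted p under 0.05), with a median change of -0.02.

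Among 13 tested regulators upstream of KLF genes, 1 rose and 1 fell with cytochalasin D. An unadjusted p under 0.05 in limma was reached by 5, 2 and 2 of them in the first, second and direct comparison. Of all probe sets tested, 10.2%, 5.28% and 4.22% reached it. Srf rose by 2.87 on the log2 scale (SE 0.21, adjusted p = 0.00191 in limma), and this call held in each of the 9 fits with 1 array left out. With both drugs it rose by 2.05 (adjusted p = 0.0393), a call that was lost in all 9 such fits (changes of 1.92 to 2.22, adjusted p = 0.0589 to 0.186). Elk3, an SRF partner that represses in resting cells, averaged 1698 ± 65.0 in controls and 1423 ± 26.2 under cytochalasin D (SD over 3 arrays) and fell by 0.25 (SE 0.04, adjusted p = 0.0394). Its call was lost in 8 of the 9 fits, all but the one without double-drug replicate 1, with adjusted p up to 0.139. Foxo3, a forkhead factor, was lower with cytochalasin D alone than with both drugs by a log2 difference of -0.35 (adjusted p = 0.703, or 0.0331 with the replicate block). Mapk7 and Mef2a, Mef2c and Mef2d, the kinase ERK5 and the MEF2 factors through which Klf2 and Klf4 are known to be induced, were not called. Of 18 genes that a KLF protein is known to regulate, 13 were tested and 0 called in limma in any comparison. An unadjusted p under 0.05 was reached by 6, 1 and 2 of the 13 in the first, second and direct comparison, against the same 10.2%, 5.28% and 4.22% of all. Their median change with cytochalasin D was -0.20. The smallest adjusted p with cytochalasin D was 0.118 in limma, for Cebpb (2700 ± 100.4 and 2278 ± 85.1, SD, n = 3).

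Genes with the most similar pattern over the 9 arrays were ranked by Pearson's r of log2(intensity + 16), among 11856 genes with a tested probe set and a gene name. For 1427742_a_at of Klf6 they were Gne (0.99), Ccn2, a secreted matricellular protein (0.98), Bag2 (0.98), Msrb1 (0.98) and Bok (0.98). For 1419354_at of Klf7 they were Pmaip1, a promoter of apoptosis (0.99), Dcun1d3 (0.99), the ERK phosphatase gene Dusp5 (0.98), Oat (0.98) and the AP-1 gene Junb (0.98). For 1419356_at of Klf7, Pmaip1, Oat and Dusp5 were again among the 5, with Tmsb4x, which encodes the actin monomer-binding thymosin beta-4 (0.98), and Tmem47 (0.97). The 9 points share their 3 groups, so these values describe genes that follow the same order of groups.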

How the data were processed

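The 9 arrays were grouped by the agent label, 3 per group. Each deposited value is the normalized intensity of a probe set on an array, not log-transformed. MAS5 and GCRMA stand in the submitters' processing notes, with no version or role, so which of them made these values is not known, and the scale was read from the values. Array number limits the precision. Symbols came from the platform annotation, updated through gene identifiers. The 64 control probe sets were left out. Values were changed to log2(intensity + 16), which makes changes of dim probe sets smaller, and tests were limited to probe sets brighter than the 40th percentile of an array on 3 or more arrays. Linear models (R 4.3.3, limma 3.58.1, lmFit and eBayes) had 1 coefficient per group over all 9 arrays, with two-sided tests adjusted by Benjamini-Hochberg over all 27010 probe sets tested. The code was tested on simulated data.

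The members and the gene lists were chosen with earlier results of these data known. The lead probe set of a gene is its brightest. Every tested member probe set is described; from the other lists, genes called in any comparison are named, with a few further genes (Sp1, Cebpb, Foxo3, cofactors and ERK5-MEF2 genes, and with the alternatives Ccnd1, Cebpd and Thy1) chosen after their values were seen, and for each called member the 5 genes with the highest Pearson's r. Same-numbered arrays deviated together in the comparisons that involve the double-drug group (r 0.411 to 0.834), which by these correlations alone marks the numbers as pairs there. Every value in the text comes from the fit without the block unless the replicate block is named. In these comparisons blocked values are given for Klf6, Klf7 and Klf10, and otherwise only where the block changes a call. For cytochalasin D against control 1 of 3 pairs had r = 0.0763, so the blocked values of that comparison are given with the alternatives. Promoter sequences are RefSeq's, assembly GRCm38.p6. Pseudocount, filter, normalization, variance trend, arrays in the fit, replicate block and single arrays left out were varied; their effect on the called list genes was added after seeing the data.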

Additional observations from a re-analysis of the deposited data

How the results depend on the processing

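With cytochalasin D against control, limma called 3 KLF probe sets. The count was 2 on only the 6 arrays compared (2 higher, 0 lower), where 0.591% of all probe sets were called. It was 6 with a pseudocount of 1 (4 higher, 2 lower), where 1.7% of all were called. With the filter at the 60th percentile it was 7 (5 and 2) of 27 tested, where 2.82% of 18143 were called. The count was 7 (4 and 3) with an intensity trend in eBayes, where 1.58% of all were called. It was 3 to 6 with 1 array left out, where 0.841% to 1.77% of all were called. With the replicate block it was 11 (7 higher, 4 lower; 34.4% of the KLF probe sets, where 3.87% of all probe sets were called), the added ones being Klf10 (adjusted p = 0.00376), 3 of Klf3, 2 of Klf6 and 2 of Klf7; for 8 of 9 arrays the 2 best correlations were with their own number. The probe sets 1427742_a_at and 1419354_at kept their calls under every alternative run. Klf10 (-1.48) passed in 5 of 18 alternatives: pseudocount 1 (adjusted p = 0.0489), the stricter filter (0.0184), the trend (0.0357), the replicate block, and without cytochalasin D replicate 7 (0.0411). Between the drug groups the count was 0, and 0 to 1 with 1 array left out. The 1 call came without control replicate 1, where 0.219% of all were called. With both drugs against control the count was 0 under every alternative, and in both comparisons the replicate block gave 0 calls.

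With the replicate block, cytochalasin D against control also lost Elk3 (adjusted p = 0.0634) and gained Foxo3 (-0.36, adjusted p = 0.00663), Ccnd1 (-0.59, adjusted p = 0.0444), Cebpd (-0.72, adjusted p = 0.0213) and Thy1 (0.42, adjusted p = 0.0363) among the listed genes. Other uncalled changes with cytochalasin D moved by over 1.5 times without turning when 1 array was left out: Klf4 (-0.32) from -0.56 to -0.19, Klf5 (-0.54) from -0.66 to -0.29, and Klf16 (0.15) from 0.033 to 0.25.

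Among lead and called probe sets, 11 values turned direction, all with 1 array left out and none of them called. Over the 9 fits that each leave out 1 array, Klf2 with cytochalasin D (-0.02) ranged from -0.20 to 0.14 and Klf9 (0.07) from -0.13 to 0.23. With both drugs Klf2 (0.16) ranged from -0.0498 to 0.36 and Klf4 (-0.08) from -0.26 to 0.0771. Between the drug groups Klf2 (-0.18) ranged from -0.38 to 0.0301 and Klf16 (-0.05) from -0.17 to 0.0435. The cause was not tested for any of these.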
